A study of Homo sapiens with 8 samples.

Results

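Regions that carried acetylation of histone H3 at lysine 27 (H3K27ac) in treatment-naive H3122 cells and had lost much of it in the crizotinib-resistant line erCriz0, but not in the alectinib-resistant line erAlec0 or the lorlatinib-resistant line erLor0, were examined. A peak was included when its level in naive cells was at least 3.91 and its level in erCriz0 was lower by at least 1, while in erAlec0 and in erLor0 it stood less than 0.5 below naive cells. Levels are rlog values on the log2 scale, and 3.91 corresponds to about 15 normalised reads. Of 126470 peaks in the table, 900 met these limits, and they were chosen by these measured H3K27ac levels, so the levels are a description and not a test.

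H3122 cells come from a lung adenocarcinoma and carry a fusion of EML4 with ALK. All lines compared here derive from them, but the state of the fusion gene differs between lines. The paper reports its amplification in most erCriz cells and in part of the erAlec cells. For erLor cells it reports no amplification, and a larger share of cells without a detectable fusion gene than in the naive line. The resistant lines had evolved under gradually raised inhibitor and were kept in 0.5 μM crizotinib (erCriz0), 2 μM alectinib (erAlec0) or 2 μM lorlatinib (erLor0), and the naive line had met none. Per the labels, all cells were grown in RPMI medium with serum and were treated in DMSO for chromatin immunoprecipitation with an H3K27ac antibody, and the RNA came from cells held for 48 h free of inhibitor. Each of the 4 lines gave 1 library of each kind, so no difference could be checked against a replicate, none was tested, and the 3 changes of a peak share 1 naive library. Each line was measured in bulk, so a lower level in every cell and a complete loss in part of the cells cannot be told apart.

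H3K27ac is placed by histone acetyltransferases such as p300 and CBP on the nucleosomes that flank active enhancers and promoters. Enhancers often lie in introns or between genes, away from the start of the gene they act on, and their acetylation differs more between cell types and cell states than that of promoters does. Long runs of neighbouring acetylated elements are typical of genes that define the identity of a cell, such as the transcription factors of the airway epithelium in lung cells.

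The central 300 bases of 5 of the 900 peaks are shown here, from the plus strand of hg38, as examples from clusters described further on. They are, in each of 4 of the clusters with the most members, the peak with the largest fall among those whose centre touches no exon, and the peak with the largest fall that holds the letters bound by AP-1 outside exons. The 4 clusters are among the 8 with the most members and were picked with their values known, to keep the number of sequences small. Capitals mark letters that match any of 15 transcription factor motifs on either strand. The motifs are spelled out with the base composition of the peaks.

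CASC15 intron, chr6:21753188-21753487: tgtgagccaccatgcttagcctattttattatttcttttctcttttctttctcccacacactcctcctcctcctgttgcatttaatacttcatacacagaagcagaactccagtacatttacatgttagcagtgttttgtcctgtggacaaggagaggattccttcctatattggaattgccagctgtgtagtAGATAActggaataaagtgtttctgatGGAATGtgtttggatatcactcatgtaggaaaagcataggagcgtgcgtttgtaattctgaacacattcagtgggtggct
RPL37A intron beside IGFBP2 and IGFBP5, chr2:216519849-216520148: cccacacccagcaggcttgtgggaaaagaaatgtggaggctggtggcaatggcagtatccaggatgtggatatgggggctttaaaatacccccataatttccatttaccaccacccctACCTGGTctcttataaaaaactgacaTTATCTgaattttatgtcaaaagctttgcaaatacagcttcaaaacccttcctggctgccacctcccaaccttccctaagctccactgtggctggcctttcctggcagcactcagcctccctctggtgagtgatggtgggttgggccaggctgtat
Intron of an unnamed gene beside S100A16, chr1:153594052-153594351: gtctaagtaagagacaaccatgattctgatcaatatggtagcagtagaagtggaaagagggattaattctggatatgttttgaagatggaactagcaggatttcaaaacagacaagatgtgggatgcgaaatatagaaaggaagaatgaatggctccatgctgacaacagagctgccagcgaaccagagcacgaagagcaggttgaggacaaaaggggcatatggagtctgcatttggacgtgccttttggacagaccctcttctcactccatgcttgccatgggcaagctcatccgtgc
MBIP intron, chr14:36310545-36310844: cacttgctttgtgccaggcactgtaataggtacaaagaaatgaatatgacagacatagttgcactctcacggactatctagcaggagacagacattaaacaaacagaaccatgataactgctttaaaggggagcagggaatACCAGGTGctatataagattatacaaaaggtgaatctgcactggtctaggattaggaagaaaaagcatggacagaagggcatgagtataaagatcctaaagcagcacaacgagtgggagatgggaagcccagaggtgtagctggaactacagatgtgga
CASC15 intron with an AP-1 match, chr6:21884636-21884935: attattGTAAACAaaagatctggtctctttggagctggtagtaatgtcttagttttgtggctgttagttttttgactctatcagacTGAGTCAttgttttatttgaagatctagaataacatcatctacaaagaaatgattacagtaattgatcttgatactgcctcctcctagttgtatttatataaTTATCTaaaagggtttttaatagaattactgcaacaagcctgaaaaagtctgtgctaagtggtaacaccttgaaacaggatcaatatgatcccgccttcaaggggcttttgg

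The first of these lies in a peak that stood at 8.40 in naive cells and 6.40 in erCriz0, against 8.45 in erAlec0 and 8.07 in erLor0. It holds matches to TEAD and GATA letters. The RPL37A sequence holds GATA and GRHL matches, the MBIP sequence holds overlapping GRHL and SNAI/ZEB matches, the last holds AP-1, FOX and GATA matches, and the S100A sequence holds none.

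Over the 69506 peaks with a naive level of at least 3.91, 4841 fell by at least 1 in erCriz0, a share of 6.96%. The 900 members are 18.6% of these and 1.29% of the 69506. The other 3941 had also fallen by 0.5 or more in erAlec0, in erLor0 or in both, and 1443 of them fell by at least 1 in all 3 resistant lines. A further 197 peaks met the 3 limits on the changes but lay under the naive minimum. Peaks lost in erCriz0 and kept in the other lines were thus the smaller share of what erCriz0 lost.

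The median level of the members was 5.59 in naive cells, 4.41 in erCriz0, 5.96 in erAlec0 and 5.69 in erLor0. The change in erCriz0 ran from −2.21 to −1.00015 with a median of −1.14, and 345 of the 900 peaks fell by less than 1.1 while 59 fell by 1.5 or more. Many members therefore lay just past the limit. At the limit itself, a peak at chr8:101441420-101441877 was included, the smallest fall among members, and a peak at chr10:60186401-60186954 changed by −0.999858 and was not. For erAlec0 the nearest values were −0.499 inside and −0.509 outside, for erLor0 −0.499 inside and −0.503 outside, and for the naive minimum 3.912 inside and 3.909 outside.

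The limits on erAlec0 and erLor0 excluded losses but not gains. Of the 900 members, 562 were above the naive level in erAlec0, 420 in erLor0 and 336 in both. In erAlec0 125 members rose by at least 1, which is 13.9% of them beside 10.7% of all 69506 peaks. In erLor0 38 rose by at least 1, or 4.22% beside 7.78% of all peaks. Both shares are set in part by the rule, which removes the peaks that fell in these lines. In erCriz0 337 members had dropped under the naive minimum of 3.91, and the others kept a level above it.

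**Figure D1:**
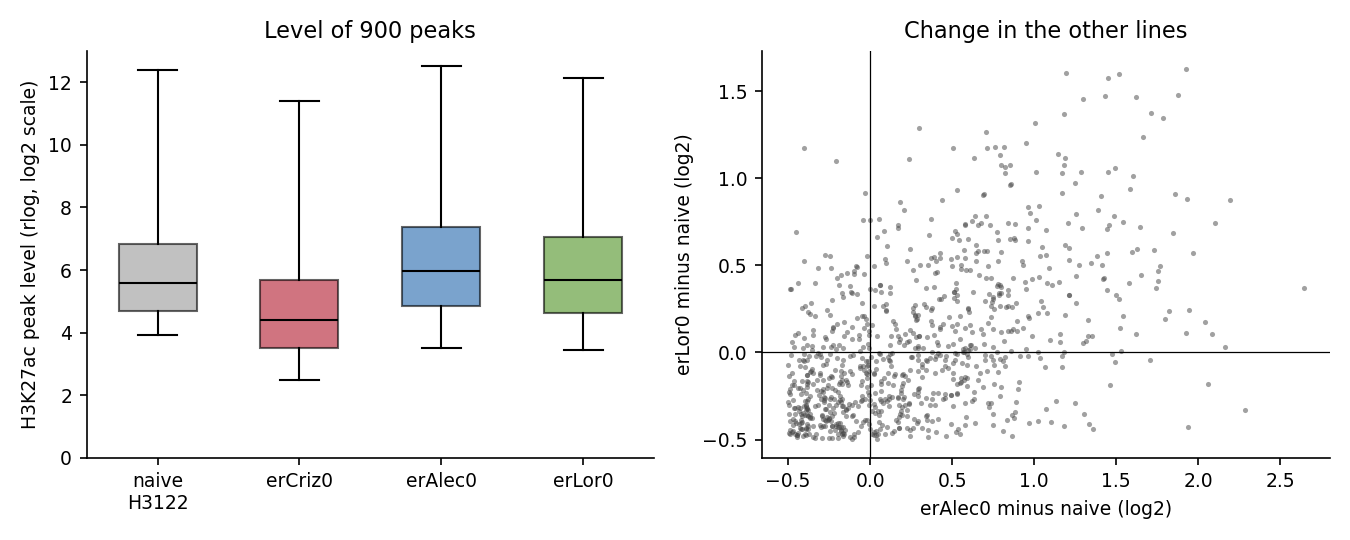
Left, H3K27ac level (rlog, log2 scale) of the 900 peaks in each of the 4 lines, with the box over the quartiles, the line at the median and whiskers to the lowest and highest peak. Right, change from naive cells in erAlec0 against that in erLor0 for the same peaks, which the rule limits to values above −0.5. The median falls from 5.59 in naive cells to 4.41 in erCriz0, and 336 peaks lie above naive cells in both.

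The 10 members with the largest fall shared loci only in part. Of the 10, 4 lay within the 19p12 zinc-finger gene cluster and fell by 1.91 to 2.21. The peak at chr19:20231129-20241247 stood at 9.51 in naive cells, 7.30 in erCriz0, 10.35 in erAlec0 and 9.63 in erLor0. This peak was thus lowest in erCriz0 and highest in erAlec0. A further 2 lay in CASC15, a long non-coding RNA gene on 6p22, with changes of −2.00 and −1.98. The other 4 lay in an intron of CADM2, a cell adhesion molecule (chr3:85504312-85505507, −2.01), on 20q13 with no gene overlapping it (chr20:53781838-53782488, −1.99), at a transcription start of DNAJC5B, a member of the DnaJ co-chaperone family (chr8:66020691-66024285, −1.95), and on chromosome 5 (chr5:45892052-45892655, −1.89).

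Members lay at transcription starts less often than the other peaks of naive cells. A peak was assigned to a start when it came within 1 kb of an annotated gene or transcript start, otherwise to an exon, an intron or the space between genes. The table lists only peaks that lie at most 20 kb from a gene, so peaks far from genes were not part of the comparison. Of the 900 members, 171 (19.0%) were at starts, 107 (11.9%) at exons, 457 (50.8%) in introns and 165 (18.3%) between genes, beside 35.7%, 9.69%, 39.3% and 15.3% of all 69506. Counting only protein-coding starts, 10.1% of members and 28.9% of all peaks were at a start. The share at any start was 13.4% for peaks lost in all 3 lines and 16.6% for the 2310 peaks lost in erAlec0 and erLor0 but not in erCriz0, so a low share was common to the 3 sets. The median distance from a member to the nearest protein-coding start was 13860 bp, beside 7135 bp for all peaks, 22666 bp for peaks lost in all 3 lines and 30730 bp for those lost in erAlec0 and erLor0.

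Members at starts had a median change in erCriz0 of −1.14, like those in introns, at −1.14, and between genes, at −1.14. They were longer, with a median of 1706 bp beside 981 bp in introns, and had a higher naive level, 6.15 beside 5.42. Over all classes the median length of a member was 1126 bp, close to the 1113 bp of all 69506 peaks, and 17 members (1.89%) were 10 kb or longer.

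The members were not spread over the chromosomes as the other peaks were. Chromosome 2 held 117 of them (13.0% of members, 7.93% of all peaks) and chromosome 6 held 105 (11.7% and 6.05%). On chromosome 6, 2.50% of peaks were members, and on chromosome 17 0.560% were. Chromosomes 14, 20 and 9 also held a larger share of members than of peaks, and chromosomes 11, 17, 16 and 22 a smaller one. The median change in erCriz0 of all peaks was −0.20 on chromosome 6 and −0.24 on chromosome 20, where 13.4% and 11.6% of peaks fell by at least 1. Fewer copies of a region lower all its peaks, and the peak values were used with no subtraction of input DNA, so the part of copy number in these shares was not tested.

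**Figure D2:**
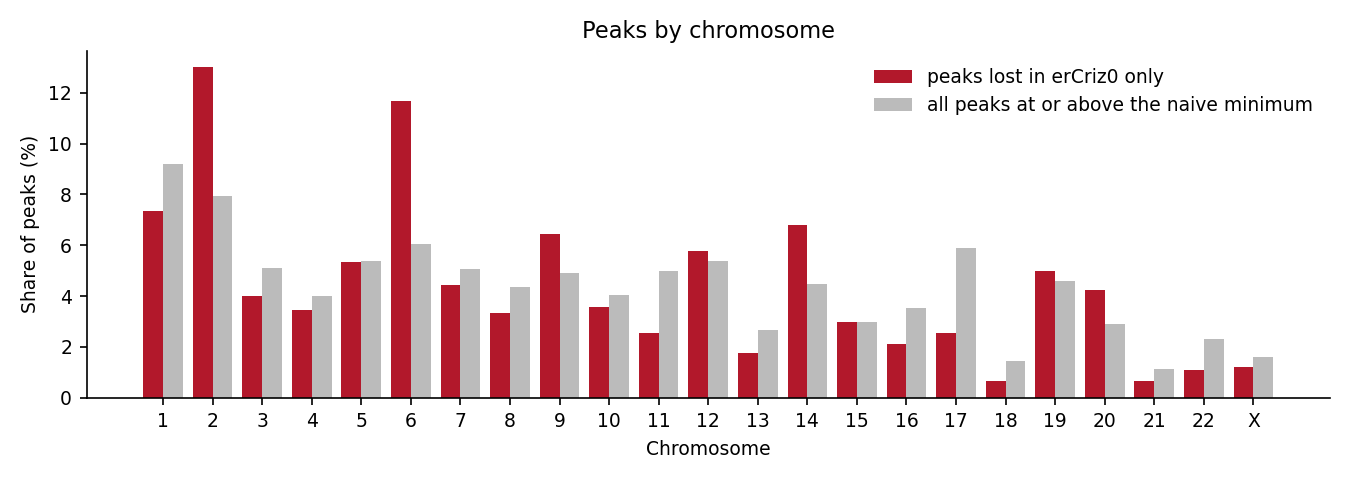
Share of the 900 peaks lost in erCriz0 only (red) and of the 69506 peaks with a naive level of at least 3.91 (grey) on each chromosome, in percent. Chromosomes 2 and 6 hold 13.0% and 11.7% of the members and 7.93% and 6.05% of all peaks.

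The surroundings of each member were therefore measured. The median change in erCriz0 of the non-member peaks within 5 Mb of a member ran from −0.62 to 0.55, with a median of −0.07, and within 0.5 Mb it had a median of −0.27. Of 996 bins of 2 Mb with at least 20 peaks, 115 had a median change of at most −0.3 over their non-member peaks. These 115 bins held 313 of the 900 members (34.8%), beside 11.9% of all 69506 peaks, 37.6% of the peaks lost in all 3 lines and 14.2% of those lost in erAlec0 and erLor0 only. Members were left out of these medians while the peaks lost in all 3 lines were counted in them, so the shares of these 2 sets are not like for like. Most members lay outside these 115 bins, and 46 of the 900 lay outside all bins tested. With a fall of at least 1.5 as the limit the share was 54.2% of 59 members beside 13.2% of all peaks, with a naive level of at least 5 it was 22.6% of 589 beside 6.07%, and it was 21.7% beside 5.05% with bins at a median of at most −0.5. After the median change of the peaks within 5 Mb was subtracted from the change in erCriz0 alone, 548 of the 900 (60.9%) still met the limits. The bins with the most members were chr19 from 20 to 22 Mb, with 26 of 84 peaks, chr6 from 20 to 22 Mb, with 21 of 127, and chr6 from 2 to 4 Mb, with 17 of 177. In these 3 bins the non-member peaks had medians of −0.67, −0.62 and −0.57.

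Some members lay side by side. Members separated by at most 100 kb were joined, which gave 554 separate loci: 390 members alone, 198 in pairs and 312 (34.7%) in 65 clusters of 3 or more. Many neighbours are pieces of a single acetylated stretch, since 148 members began within 1 kb of the end of the member before them. The members are therefore not independent of each other. By the same joining 68.3% of all 4841 peaks that fell by at least 1 in erCriz0, 56.0% of the 1443 lost in all 3 lines and 46.1% of the 2310 lost in erAlec0 and erLor0 but not in erCriz0 were in clusters. The members thus had the lowest share of these sets, but the other sets hold more peaks, which brings neighbours closer. In the 65 clusters 431 of the 731 peaks with a naive level of at least 3.91 fell by at least 1 in erCriz0, members included, and 402 of the 419 that are not members (95.9%) were below the naive level, beside 49.0% of all 69506 peaks. The clusters were themselves chosen by falls in erCriz0, so these shares are set in part by that choice. With a fall of at least 1.5 as the limit 15.3% of 59 members were in clusters, and with both other lines above naive cells 17.3% of 336. The 8 clusters with the most members held 93 of them (10.3%).

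The cluster with the most members lay in CASC15, at chr6:21728077-21955567. It held 20 members among 45 peaks, and 36 of the 45 fell by at least 1 in erCriz0. The medians of its members were 5.66 in naive cells, 4.24 in erCriz0, 5.77 in erAlec0 and 5.73 in erLor0. The peaks of the cluster that are not members had a median change of −1.32 in erCriz0, so most of them missed the rule by falling in another line as well. Over all 45 peaks the median change was −1.30 in erCriz0 and −0.31 in both other lines. Over the 86 peaks within 1 Mb on either side it was −0.51 in erCriz0. The 3 members with the highest naive level, all of them long, lay toward the 3′ end of the stretch. The longest of them, at chr6:21909799-21922988, stood at 10.16 in naive cells, 8.96 in erCriz0, 10.67 in erAlec0 and 10.82 in erLor0. CASC15 RNA was at 6.44, 6.09, 6.61 and 6.23 in the same order of lines. The nearest protein-coding gene was SOX4, a transcription factor of the SRY-box family, whose RNA was at 11.60 in naive cells, 11.95 in erCriz0, 12.34 in erAlec0 and 11.53 in erLor0. Neither gene changed by 1 in erCriz0.

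The clusters ranked second and seventh by members lay among zinc-finger genes of chromosome 19, which encode repressors of the KRAB family. At chr19:20136584-20361944, beside ZNF486 and ZNF90, 18 of 24 peaks were members, with medians of 6.32 in naive cells, 4.80 in erCriz0, 7.19 in erAlec0 and 6.59 in erLor0. At chr19:23504512-23557862, in and beside ZNF675, 8 of 12 were, with medians of 6.03, 4.75, 7.997 and 6.14. In both clusters erAlec0 stood above naive cells while erCriz0 stood below. The peak at chr19:23554720-23557862 spanned this range, with 5.78 in naive cells, 4.17 in erCriz0, 7.94 in erAlec0 and 5.81 in erLor0. The peaks within 1 Mb of these clusters had median changes in erCriz0 of −0.21 and −0.06. ZNF486 RNA was at 8.80 in naive cells, 8.32 in erCriz0, 8.08 in erAlec0 and 8.60 in erLor0, while ZNF675 RNA was at 7.87, 7.89, 7.60 and 7.82. These genes are near-identical copies of each other in places, so both their peaks, which rest on uniquely mapped reads, and their RNA are less certain than those of single-copy genes.

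The IGFBP2 and IGFBP5 locus at chr2:216517382-216666299 held 10 members among 39 peaks, of which 24 fell by at least 1 in erCriz0. IGFBP2 and IGFBP5 encode secreted proteins that bind insulin-like growth factors, and RPL37A, which lies beside them, encodes a ribosomal protein. The members had medians of 5.94 in naive cells, 4.73 in erCriz0, 6.22 in erAlec0 and 5.99 in erLor0, whereas the 53 peaks within 1 Mb on either side had a median change of 0.12 in erCriz0. IGFBP2 RNA was at 9.68 in naive cells, 7.79 in erCriz0, 10.14 in erAlec0 and 10.78 in erLor0. This RNA was lowest in erCriz0 and above naive cells in both other lines. IGFBP5 RNA was at 5.56, 4.61, 4.71 and 5.26, and RPL37A RNA at 13.24, 13.09, 13.49 and 13.31. Among the 8 clusters IGFBP2 was the single expressed gene within 500 kb whose RNA was lower by at least 1 in erCriz0. There were 3 to 27 expressed genes around each cluster. Over all expressed genes 1.65% were lower by as much, so this count does not set the clusters apart.

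Next to S100A16 and S100A14, genes of small calcium-binding proteins in the epidermal differentiation region, all 9 peaks of the stretch chr1:153591932-153601497 were members. Their medians were 7.44 in naive cells, 6.39 in erCriz0, 7.13 in erAlec0 and 7.11 in erLor0. They changed by between −1.23 and −1.02 in erCriz0. S100A16 RNA was at 13.91 in naive cells, 14.09 in erCriz0, 15.20 in erAlec0 and 14.69 in erLor0, while S100A14 RNA was at 14.87, 14.83, 15.85 and 15.96. In erCriz0 the lower acetylation thus went with RNA changes of only 0.18 for S100A16 and −0.04 for S100A14, and RNA of both genes was higher in the lines that kept the peaks.

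The MBIP cluster at chr14:36205770-36311720 held 8 members among 18 peaks and had the highest levels of the 8 clusters, with medians of 8.29 in naive cells, 7.13 in erCriz0, 7.92 in erAlec0 and 8.08 in erLor0. The cluster ends 205 kb from NKX2-1, the lineage transcription factor of the distal lung and of lung adenocarcinoma. NKX2-1 RNA was at 8.68 in naive cells, 8.67 in erCriz0, 9.13 in erAlec0 and 9.18 in erLor0, while MBIP RNA was at 11.31, 11.58, 11.32 and 11.26. Neither gene was lower by 1 in erCriz0. The last pair of the 8 lay at chr6:3760810-3933305 beside FAM50B and PXDC1, with 12 members of 21 peaks, and at chr20:53781838-53874376 on 20q13 between ZNF217 and BCAS1, with 8 of 24. There the peaks within 1 Mb on either side had median changes in erCriz0 of −0.82 and −0.58, the lowest of the 8. PXDC1 RNA was at 6.46 in naive cells, 6.86 in erCriz0, 7.99 in erAlec0 and 7.58 in erLor0.

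**Figure D3:**
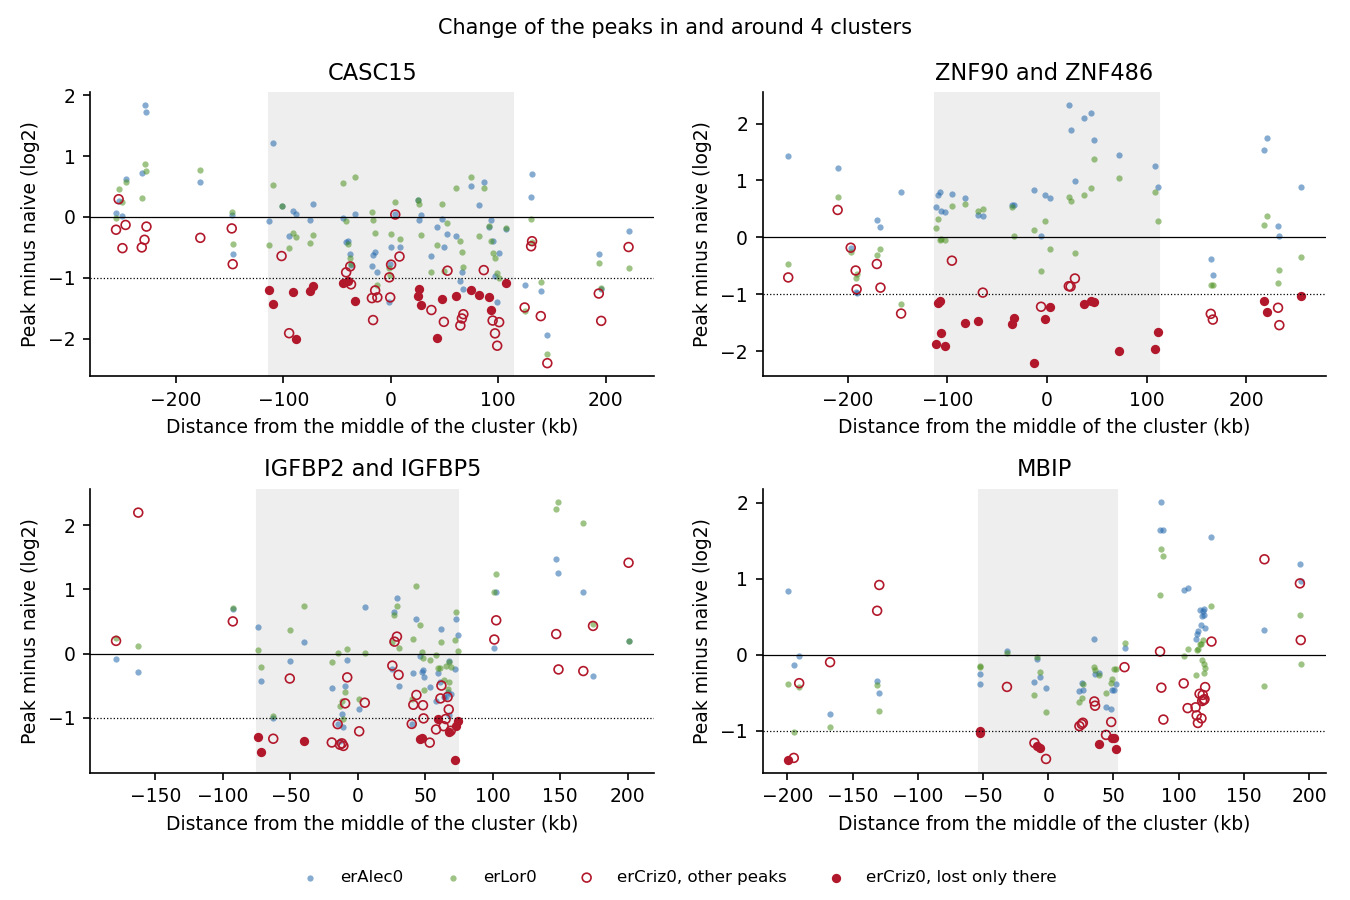
Change from naive cells (rlog difference, log2) of every peak with a naive level of at least 3.91 against its distance in kb from the middle of 4 clusters, with 150 kb on either side of each. Filled red points are members in erCriz0, open red points other peaks in erCriz0, and blue and green points the same peaks in erAlec0 and erLor0. Grey marks the cluster, and the dotted line a change of −1. Median changes in erCriz0 over all peaks of the 4 clusters were −1.30 at CASC15, −1.32 at ZNF486, −1.098 at IGFBP2 and −1.04 at MBIP.

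RNA was a readout that the rule did not use. The table pairs a peak with each gene at most 20 kb away, and the 900 members were paired with 1308 genes in 1967 pairs, of which 527 genes were expressed, with an rlog of at least 4.64 (about 25 normalised reads) in at least 1 line. A further 335 of the 1308 were listed at 0 in all 4 lines, and 265 members had no expressed gene in reach. Most genes beside a member did not change by 1. The median RNA change in erCriz0 over the 527 genes was −0.04, beside −0.02 over all 12701 expressed genes, and with libraries centred on their medians it was 0.01, beside 0.04 for all. Over members paired with 1 gene alone it was 0.01, beside 0.07 for the genes of all peaks of that kind. The median of the paired genes was thus just below that of all genes under each of these settings. Of the 527, 54.5% were below naive cells, beside 52.1%.

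In the tails the paired genes differed more from the background. In erCriz0 20 of the 527 genes (3.80%) were down by at least 1, beside 1.65% of all expressed genes, and 6 (1.14%) were up by at least 1, beside 2.65%. In erAlec0 9 (1.71%) were down, beside 2.07%, and 34 (6.45%) were up, beside 2.46%. In erLor0 5 (0.949%) were down, beside 0.74%, and 15 (2.85%) were up, beside 1.1%. Beside the 59 members that fell by 1.5 or more, 4 of 39 genes (10.3%) were down in erCriz0. Of the 20 genes down in erCriz0, 12 had an RNA change above −0.5 in both other lines. Genes that share a member, or lie together in a cluster, are not independent, and the shares were not tested.

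A member at a start of the gene itself, meaning within 1 kb of the start of any of its annotated transcripts, went with a larger share of falls. Of 76 genes with a member at their own start, 8 (10.5%) were down in erCriz0 and 1 was up, with a median change of −0.06. Of the other 451 genes, 12 (2.66%) were down and 5 were up, with a median of −0.03. The share of genes down by at least 1 showed no such difference with the number of members beside a gene. Of 160 genes with 2 or more members 6 (3.75%) were down, and of 19 genes with 5 or more, 1 was, IGFBP2. The share merely below naive cells was larger with more members. It was 58.75% of the 160 and 73.7% of the 19 (14 genes), beside 52.1% of all expressed genes.

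Among protein-coding genes the largest falls in RNA were those of EYA2, a phosphatase and transcription cofactor, and IGFBP2. EYA2 RNA was at 7.14 in naive cells, 5.22 in erCriz0, 5.94 in erAlec0 and 6.10 in erLor0, so it was lower in every resistant line. Its single member, in an intron, stood at 5.76, 4.64, 6.69 and 5.89, and the acetylation of all 14 peaks paired with EYA2 had a median change of −0.34 in erCriz0 and 1.36 in erAlec0. Acetylation and RNA of EYA2 thus moved in opposite directions in erAlec0.

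IGFBP2 had 7 members, which fell by 1.03 to 1.66 in erCriz0. The one in an intron at chr2:216636997-216638771 stood at 6.62 in naive cells, 5.28 in erCriz0, 6.58 in erAlec0 and 7.07 in erLor0. The order of its levels was that of IGFBP2 RNA except that erAlec0 lay just under naive cells. Its 25 peaks had a median change of −1.02 in erCriz0, −0.30 in erAlec0 and −0.02 in erLor0.

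NEDD9, a scaffold protein of focal adhesions, was at 8.44 in naive cells, 7.27 in erCriz0, 9.91 in erAlec0 and 9.21 in erLor0. The member at its start stood at 5.25, 4.12, 6.87 and 5.35, and the one in an intron at 5.70, 4.54, 7.19 and 6.48. For both members and the RNA the order of the 4 lines was the same, with erCriz0 lowest and erAlec0 highest. KRT81, a hair-type keratin whose reads can be shared with KRT86 and other near copies, was at 7.08 in naive cells, 5.47 in erCriz0, 7.31 in erAlec0 and 7.55 in erLor0. Its 4 members lay in the gene or within 9.71 kb of it, and the highest of them stood at 10.39, 9.35, 10.90 and 10.33.

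PKMYT1, an inhibitory kinase of CDK1, was at 8.89, 7.38, 8.16 and 8.30 in naive cells, erCriz0, erAlec0 and erLor0, and its member lay inside the gene at the start of a shorter transcript. The same member was paired with GREP1, at 7.12, 5.95, 7.10 and 7.38. BICRA, a subunit of BAF-type chromatin remodelling complexes, also had a member within 1 kb of the start of a shorter transcript, far inside the gene, and was at 8.52, 7.39, 8.68 and 8.59. BICRA and GREP1 were thus lower by at least 1 in erCriz0 and within 0.3 of naive cells in the other lines.

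The same held for SLC16A5, a monocarboxylate transporter family member, at 8.66, 7.24, 8.67 and 8.64, and for MAZ, a zinc-finger transcription factor, at 10.24, 9.04, 10.06 and 10.36. By contrast E2F1, which drives genes of S phase entry, was at 7.40, 6.03, 5.79 and 6.79, lowest in erAlec0. UCP2, a mitochondrial carrier of the uncoupling protein family, was at 7.35, 6.02, 6.66 and 7.50, and the histone gene H2AC12, one of many near copies, at 8.80, 7.20, 7.17 and 7.74. H2AC12 and E2F1 were therefore lower in lines that kept their peaks as well. The member lay 18171 bp from MAZ, 19430 bp from H2AC12, 8665 bp from UCP2 and 3024 bp from SLC16A5, and that of E2F1 lay in an intron. Over all peaks paired with each gene the median change in erCriz0 was −0.02 for MAZ and −0.10 for E2F1. It was −0.52 for SLC16A5, −0.66 for UCP2 and −0.96 for H2AC12.

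RNA of some paired genes was higher in erCriz0 although the members beside them were lower. PRUNE2 was at 4.94 in naive cells, 6.53 in erCriz0, 4.83 in erAlec0 and 4.93 in erLor0, while 2 of its 21 peaks were members. The median change of its 21 peaks in erCriz0 was 0.13. STOM, the membrane protein stomatin, was at 9.29, 10.69, 10.34 and 9.42, and its 4 members lay 12 to 17 kb away, within GSN. Here RNA was higher while the median change of its 15 peaks was −1.07. CTSS, the lysosomal protease cathepsin S, was at 7.83, 9.36, 8.85 and 8.34, MTUS1, a microtubule-associated protein, at 9.07, 10.47, 9.76 and 9.80, PDE4D, a cyclic AMP phosphodiesterase, at 10.36, 11.57, 10.69 and 10.47, and LBH at 4.95, 6.13, 5.73 and 5.81. Next came MYOF, a membrane repair protein, with a change of 0.98, and the sialyltransferase ST6GALNAC1, with 0.97, both of which were higher by more than 1 in erAlec0 and erLor0. Over all paired peaks the median change in erCriz0 was −0.58 for MTUS1, −0.22 for CTSS, −0.17 for LBH and −0.01 for PDE4D. It was −0.20 for MYOF and −0.35 for ST6GALNAC1.

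**Figure D4:**
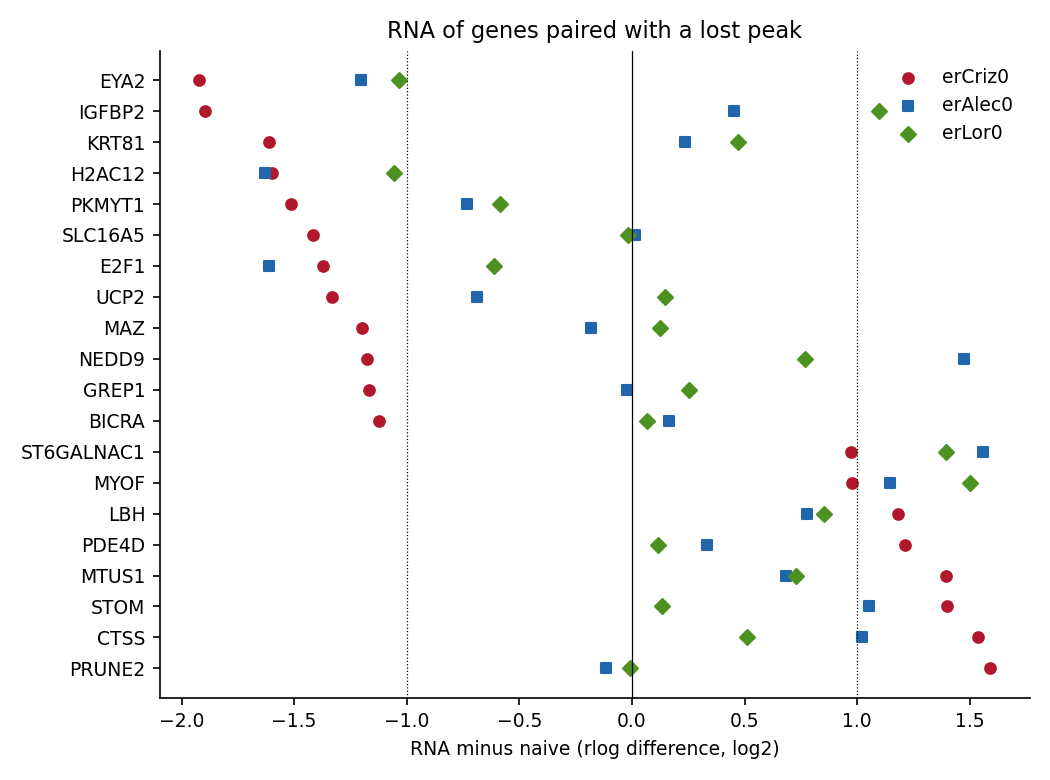
RNA change from naive cells (rlog difference, log2) in erCriz0 (red circles), erAlec0 (blue squares) and erLor0 (green diamonds) of the 12 protein-coding genes with the largest fall and the 8 with the largest rise in erCriz0 among expressed genes paired with a lost peak. Dotted lines mark changes of −1 and 1. IGFBP2 and NEDD9 are at −1.90 and −1.18 in erCriz0 and higher than naive cells in both other lines, each gene having 1 library per line.

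Of the 12 expressed protein-coding genes with the most members beside them, IGFBP2 was the 1 whose RNA changed by at least 1 in erCriz0. Over all expressed protein-coding genes 1.73% were down and 2.71% were up by as much. Of the 12, 9 were below naive cells, beside 52.4% of all expressed protein-coding genes. The changes of these 9 ran from −1.90 for IGFBP2 to −0.01 for ACSL3. BAG1, a co-chaperone of HSP70, had 7 members within it and beyond its 3′ end, and its RNA was at 8.81 in naive cells, 8.17 in erCriz0, 9.09 in erAlec0 and 9.22 in erLor0. CDYL, a chromodomain corepressor, had 6 members and RNA at 10.28, 10.09, 10.40 and 10.22, and RNF115, a ubiquitin ligase, had 6 and RNA at 10.91, 10.63, 11.26 and 11.01. RNA of these 3 genes was lower in erCriz0 by less than 1.

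MIPOL1, which lies beside FOXA1 on chromosome 14, had 6 members, and its RNA was at 10.95, 11.87, 11.38 and 11.08, so it was highest in erCriz0. The longest of the 6, at chr14:37433004-37439777, stood at 10.49 in naive cells, 9.24 in erCriz0, 10.91 in erAlec0 and 10.53 in erLor0. ACSL3, an acyl-CoA synthetase for long-chain fatty acids, had 5 members and RNA at 12.49, 12.49, 11.86 and 12.13, and DTNB, beta-dystrobrevin, had 5 and RNA at 7.98, 7.93, 7.60 and 7.81. For both the RNA was lower in the lines that kept the peaks than in erCriz0.

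HTR2B, the serotonin receptor 2B, was the reverse case. Its 5 members included one at its start, which stood at 8.65 in naive cells, 7.32 in erCriz0, 9.65 in erAlec0 and 9.97 in erLor0. Its RNA was at 4.52 in naive cells, 4.51 in erCriz0, 6.48 in erAlec0 and 5.52 in erLor0. The RNA thus differed by −0.01 where acetylation of the start changed by −1.33, and was higher in the lines where acetylation was higher, although the naive value lies under the limit of expression, 4.64. HTR2B lies within PSMD1 on the opposite strand, so its peaks also belong to PSMD1.

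In 8 lists of genes relevant to inhibitor resistance and to the epithelial state of these cells, 14 of 179 expressed genes (7.82%) were paired with a member, beside 4.15% of all expressed genes. The transcription factors of lung and epithelium took the largest share, with 6 of 23. These were GRHL1, GRHL2, OVOL2, KLF5, TFAP2C and HOPX, and none was down by 1 in RNA in erCriz0. GRHL1, a grainyhead-family factor, had 4 members, and GRHL1 RNA was at 9.57 in naive cells, 9.37 in erCriz0, 9.44 in erAlec0 and 9.70 in erLor0. The largest RNA change among the 6 in erCriz0 was that of OVOL2, a repressor of mesenchymal genes, at 6.19, 5.32, 6.36 and 6.26, with 2 members that lay at starts of another gene, SNX5, and not at its own. HOPX was at 4.96, 4.70, 6.95 and 7.37, and KLF5 at 12.35, 12.73, 12.86 and 12.45.

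Of 33 expressed genes of epithelial junctions and keratins, 5 were paired with a member, namely DSP, KRT8, KRT18, KRT80 and OCLN. KRT80, an epithelial keratin, was the 1 list gene with a member whose RNA was down by at least 1, at 10.02 in naive cells, 8.93 in erCriz0, 10.67 in erAlec0 and 10.18 in erLor0. Its member stood at 8.41, 7.30, 8.42 and 8.07. DSP, which encodes the desmosomal protein desmoplakin, had 3 members, one of 13.6 kb at its start that stood at 10.74, 9.60, 10.80 and 11.51, and DSP RNA was at 10.76, 10.84, 11.78 and 12.02.

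Among 22 expressed receptor tyrosine kinase genes IGF1R, the receptor of insulin-like growth factors, was the 1 gene paired with members, and it had 3 among 45 peaks. IGF1R RNA was at 10.94 in naive cells, 11.04 in erCriz0, 11.12 in erAlec0 and 11.11 in erLor0. ERBB4 was paired with 1 member but was under the limit of expression. Of 19 expressed YAP and TEAD pathway genes AJUBA and AMOTL2 were paired, with changes in RNA of −0.29 and 0.29. No member was paired with an expressed gene of the ERK pathway list (26 genes), the list of epithelial-mesenchymal transition (26), the AP-1 factors (11) or the histone acetylation enzymes and readers (24). ALK and EML4, the genes of the fusion, had 0 members among 24 and 32 peaks. Only 1.29% of all peaks at or above the naive minimum were members, so this does not set the 2 genes apart. The median change of their peaks in erCriz0 was 0.04 for ALK and 0.76 for EML4.

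The 900 members were poorer in G and C than the other peaks. The median GC content of their central 300 bases was 45.7%, beside 49.3% for all 69506 peaks, 44% for peaks lost in all 3 lines and 43.7% for those lost in erAlec0 and erLor0. Away from starts the difference was smaller, at 45.3% for members and 46.7% for all. The share of peaks that were members fell across 5 equal classes of GC content, from 1.86% in the lowest to 0.405% in the highest. The median change in erCriz0 of all peaks also moved with GC content, from −0.11 in the lowest class to 0.29 in the highest. With this trend removed in each resistant line, a setting chosen after seeing the data, 563 of the 900 members (62.6%) still met the limits. Whether GC content itself had a part in the losses was not tested.

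Matches to 15 motifs were counted on both strands of the same 300 bases. The letters searched were TGANTCA for AP-1 factors, GGAATG for the TEAD family, CCGGAAG for the ETS family, TGTTTAC for the FOX family, CTCAAG for NKX2-1 and AGATAA for the GATA family. Those of the others were TGTGGTT for the RUNX family, GGGCGG for KLF/SP factors, TTGCGCA for the CEBP family, CAGGTG for SNAI/ZEB repressors, ACCNGGT for the GRHL family, GTTAAT for HNF1 proteins, ACAAAGG for the SOX family, CAAAGTC for HNF4 proteins and AGGGGGC for the insulator protein CTCF. Short strings such as these occur often by composition alone, the GRHL and SNAI/ZEB strings can overlap, and a match is no evidence of binding.

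The AP-1 letters were held by 6.89% of members, beside 10.1% of all peaks, 10.7% of peaks lost in all 3 lines and 18.4% of those lost in erAlec0 and erLor0 but not in erCriz0. Away from starts the shares were 6.996% of members and 11.7% of all. Members thus held these letters least often of the sets compared. GATA letters were held by 17.6% of members and 13.3% of all peaks, or 17.3% and 15.5% away from starts. KLF/SP letters, which are rich in G and C, were held by 6.67% and 15.9%, and away from starts by 5.90% and 7.65%. GRHL letters were in 3.22% of members and 5.30% of all peaks, TEAD letters in 16.0% of both, NKX2-1 letters in 19.9% and 19.1%, and FOX letters in 5.11% and 4.41%. In all, 8 of the 15 motifs were in a larger share of members than of all peaks, and away from starts 5 were.

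**Figure D5:**
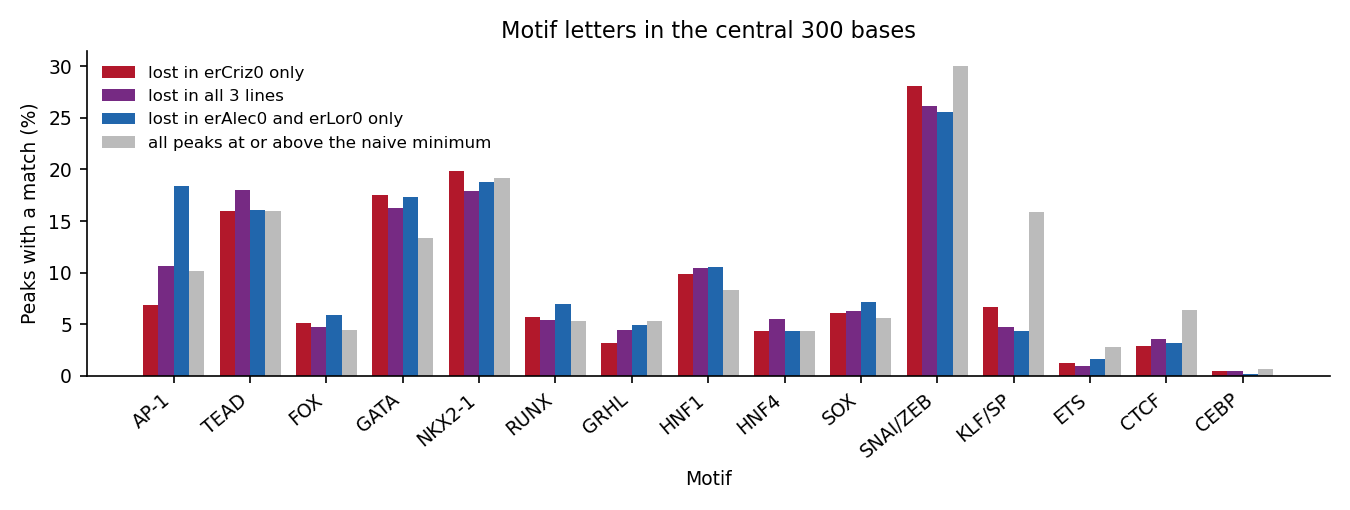
Share of peaks whose central 300 bases hold each motif on either strand, in percent, for the 900 peaks lost in erCriz0 only (red), the 1443 lost in all 3 lines (purple), the 2310 lost in erAlec0 and erLor0 only (blue) and all 69506 peaks with a naive level of at least 3.91 (grey). AP-1 letters are in 6.89%, 10.7%, 18.4% and 10.1% of these sets.

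The labelled cell type was checked in the RNA. All 8 epithelial markers were expressed in every line, with rlog values from 10.2 to 15.2, and 0 of 5 leukocyte, 2 of 4 endothelial and 1 of 4 fibroblast markers passed the limit of expression in any line. The summed rlog of the leukocyte list ran from 4.15 to 4.39 and that of the epithelial list from 97.1 to 99.2 over the 4 lines. The fibroblast sum ran from 14.8 to 15.9. The endothelial sum was 10.7 in naive cells, 9.64 in erCriz0, 11.9 in erAlec0 and 12.6 in erLor0, lowest in the line that lost the peaks, with PECAM1 and VWF under the limit of expression. Its part in the results was not tested.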

How the data were processed

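The authors deposited a table that pairs H3K27ac ChIP-seq peaks with the genes up to 20 kb away, in which peaks and genes carry log2 values for 4 lines, made as DESeq2 rlog values from read counts. Per the submitters' processing notes and the paper's methods, ChIP-seq reads were aligned to hg38 with BWA, duplicates were removed, peaks were called with MACS2 in each sample and merged, and reads were counted with featureCounts. RNA reads were aligned with HISAT2 and counted with HTSeq-count, after the strand setting was checked with RseQC. Versions of these tools were not given in the sources used here. The authors also deposited mean columns and, for each pair, a correlation score with its p-value and adjusted p-value, and none of these was used. The rlog function shrinks differences of features with few reads toward 0 and keeps no read totals, so read depth cannot be known and values carry no counting error.

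A change is the rlog value in a resistant line less the naive value. The members and the gene lists were chosen with earlier results of these data known. With 1 library per line no test was run, and shares are set beside those of all peaks or genes. Peaks were placed on GENCODE release 44, which named 43669 of the 43869 genes in the table, and sequences were read from hg38. Clusters join members at most 100 kb apart, and regions were examined in bins of 2 Mb and windows of 5 Mb. Genes named are those of the 8 clusters with the most members, the 10 members with the largest fall, the 12 protein-coding genes with the most members, the 12 with the largest fall and the 8 with the largest rise in RNA, list genes paired with a member, and ALK and EML4. SOX4 and NKX2-1, neighbours of clusters, were added after their values were seen, and 1 gene and 1 sequence are not reported here. Alternatives tried were centring, quantile normalization, stricter limits, a regional median subtracted, other windows, gaps, bins and gene filters, and, chosen after seeing the data, removal of a GC trend, both ways the table's decimals are written, leaving out the 2 clusters with the most members, and peaks away from starts. The scripts were tested on simulated data. Analysis ran in Python 3.11.15 with pandas 2.3.3, numpy 2.4.6, matplotlib 3.10.9 and, for statistics, scipy 1.17.1. Of the 8 samples of the series, the pooled input, erLor1, erCriz1 and cells treated with lorlatinib were not analysed here, and 0 columns of per-sample values were left unmapped.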

Additional observations from a re-analysis of the deposited data

Results flagged for a closer look

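RNA of 2 protein-coding genes paired with lost peaks was lower by at least 1 in erCriz0 and higher by at least 1 in another resistant line, each against the same naive library. IGFBP2 RNA changed by −1.90 in erCriz0 and by 1.097 in erLor0. NEDD9 RNA changed by −1.18 in erCriz0 and by 1.47 in erAlec0. Each line has 1 library, so these differences between lines were not tested.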

How the results depend on the processing

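No paired analysis was possible because each line has 1 library, and for the same reason no replicate could be left out. Of 74 values recomputed under another setting or in a part of the table, 44 moved little, 28 moved and 2 changed sign. With libraries centred on their medians 39.2% of members lay in bins of broad fall (17.2% of all peaks) and the median RNA change was 0.0062, a change of sign that moved with all genes, whose median became 0.04. After quantile normalization 22.9% were at starts and 44.7% in bins of broad fall. A fall of at least 1.5 left 59 members, with 13.6% at starts, 15.3% in clusters, 54.2% in bins of broad fall, a median RNA change of −0.16, 10.3% of paired genes down and 0 list genes. With both other lines above naive cells 336 members were left, 17.3% in clusters, with 8 list genes. A naive level of at least 5 left 589, with 29.9% in clusters and 22.6% in bins of broad fall. With the median of peaks within 5 Mb subtracted, in erCriz0 alone, 29.4% were in clusters, and the share in bins of broad fall was not computed since that step removes it. The settings that follow were chosen after seeing the data. With the GC trend removed 31.0% were in clusters and 29.7% in bins of broad fall, and 563 of the 900 members (62.6%) still met the limits. Peaks written to at most 6 decimals had 40.4% in such bins and the others 29.98%, and away from starts 5 motifs were in a larger share of members. Under the remaining settings, all planned, starts counted 13.0% (27.1% of all peaks) within 0.1 kb and 10.1% (28.9%) for protein-coding genes, a gap of 20 kb left 25.3% in clusters, bins of 5 Mb held 29.4% (8.50% of all peaks) and a limit of −0.5 held 21.7%. The median RNA change of genes of members paired with 1 gene was 0.015 (0.07 for all such peaks), and at a limit of 1.5-fold 12.1% of paired genes were down, beside 8.52% of all. The cause of these shifts was not tested. Members, levels and changes rest on single libraries of unknown depth.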
